A study of Mus musculus with 8 samples.

Results

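The genes that build the transport coats between the endoplasmic reticulum (ER) and the Golgi, and the receptors that load cargo into them, were compared between livers of wild type mice and of mice that carry the E167K variant of Tm6sf2 as a knock-in. The group was a list of 42 named genes, each read from the probe set that carries that gene's symbol alone and has the highest mean over all arrays. All 42 were found among the 22180 genes of the deposited table, and all 42 lay above the dim limit (the 40th percentile of an array's values) on all 8 arrays, so all 42 were tested. The samples were livers of male mice labelled as C57BL/6J, 4 arrays of littermate wild type and 4 of knock-in, hybridised to Affymetrix whole-transcript arrays. The labels do not say whether the variant is on 1 or both alleles. They disagree on diet: 20 weeks on high-fat food in the series text, and 14 weeks on chow or a sucrose-rich food without fat in the note on each sample. No result is therefore tied to a diet. Separate animals per array are not stated in so many words, and p-values then measure the spread between these samples, which may be technical. The number of arrays limits the precision.

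Proteins leave the ER in vesicles coated by COPII, in which the GTPase Sar1, activated by Preb (Sec12), recruits the inner coat of Sec23 and Sec24 and then the outer coat of Sec13 and Sec31. Sec24 and membrane receptors choose the cargo, and COPI vesicles carry receptors and escaped ER residents back. Hepatocytes send very low density lipoprotein (VLDL) by this route, a particle too large for an ordinary COPII vesicle, and Sar1b, Surf4 and the large receptors Mia2 and Mia3 are known for helping such cargo out. Tm6sf2 sits in the ER and Golgi membranes and takes part in loading VLDL with lipid.

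Knock-in replicate 3 stood apart from the rest before any comparison, because it carried transcripts of the acinar pancreas. On that array the digestive protease Ctrb1 was at 12.3, the lipase Cel at 11.0, the carboxypeptidase Cpa1 at 10.4 and the trypsinogen Prss1 at 3.97 (log2 expression). Among wild type arrays the highest values of these 4 genes were 4.84, 3.21, 3.29 and 1.99. The mean of the 4 markers was 2.75 to 3.17 in wild type arrays, 9.43 in knock-in replicate 3, 4.55 in knock-in replicate 4, and 3.13 and 2.52 in knock-in replicates 1 and 2. All 4 lay above the dim limit in knock-in replicate 3, and 3 did in knock-in replicate 4, against 0 or 1 in each of the remaining arrays. A further 10 acinar genes were chosen after their values were seen. All 10 lay above the limit in knock-in replicate 3 and 5 did in knock-in replicate 4, against 3 or 4 in each of the remaining arrays. Acinar cells are among the most active secretory cells of the body and use the same transport genes, so results are also given without this array. Knock-in replicate 3 was the highest of the 8 arrays in 1 of the 42 transport genes and the lowest in 6. Hepatocyte markers were at an array mean of 12.6 in each wild type array and 12.5 to 12.6 in knock-in arrays, and the neutrophil list had 0 of 3 genes tested. Of the other marker lists, Kupffer cells (6 genes tested), stellate cells (6), cholangiocytes (4) and T and NK cells (2) had 0 genes at an unadjusted p under 0.05 by limma. The endothelial list had 1 of 5 (Lyve1, 0.73), the B and plasma cell list 1 of 4 (Jchain, 1.04) and the hepatocyte list 1 of 6 (Serpina1a, -0.35), with 0 past the adjusted threshold in each. The share of all tested genes at an unadjusted p under 0.05 was 11.3%. A bulk array cannot tell fewer cells of a type from less RNA per cell. Array medians were 3.73 to 3.80, and any pair of arrays correlated at 0.973 to 0.980 over all probe sets.

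**Figure D1:**
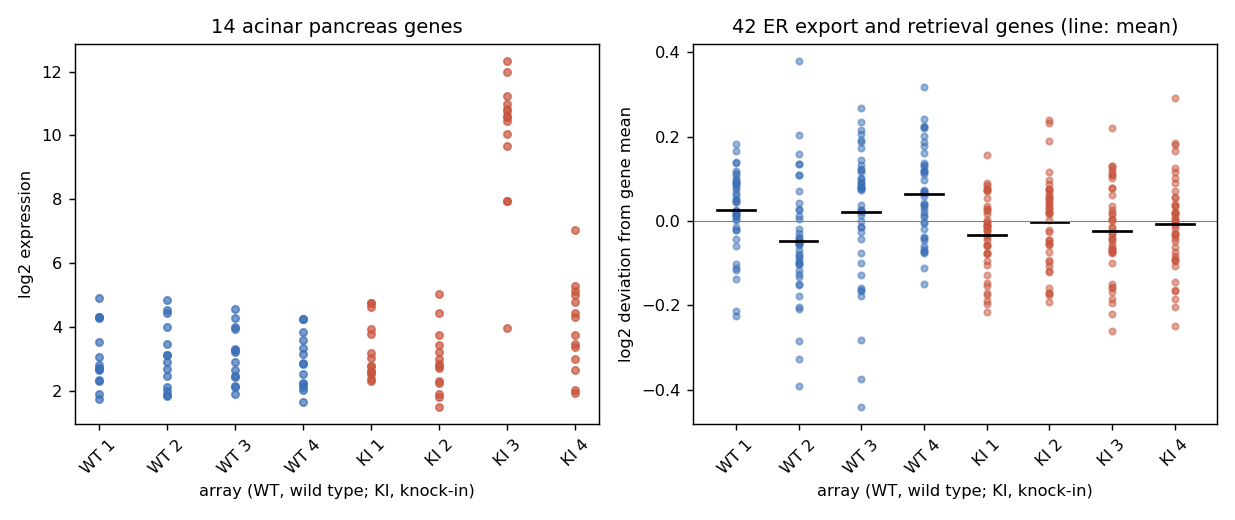
Left, log2 expression of 14 acinar pancreas genes on each array (4 from the marker list and 10 added after their values were seen); right, the deviation of each of the 42 ER export and retrieval genes from its own mean over 8 arrays, with the array mean as a line. Knock-in replicate 3 holds the acinar transcripts, and its transport genes have a mean deviation of -0.023, between wild type replicate 2 at -0.048 and wild type replicate 4 at 0.064.

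The transport genes as a whole lay close to wild type. Over all tested genes, 0 of the 42 passed an adjusted p of 0.05 by limma (lowest adjusted p = 0.305), where 9 of 13449 genes, or 0.0669%, did. At an unadjusted p under 0.05 there were 5 of the 42, or 11.9%, against a background of 11.3%, with 1 higher (background 6.01%) and 4 lower (background 5.29%) in the knock-in. This share is near the background. The 4 values of each group did not overlap in 5 members, or 11.9% (background 7.16%), with 2 higher (background 3.96%) and 3 lower (background 3.2%). By sign, 17 members were higher and 25 lower, beside 6877 and 6572 of all tested genes. The median log2 change of the members was -0.024, beside 0.0046 over all tested genes. For 41 of 42 members the 95% interval of the change lay wholly within 1.5-fold in either direction (0.58 on the log2 scale), which was so for 73.8% of all tested genes. The median SD of members was 0.11 in wild type and 0.078 in knock-in arrays, beside 0.18 and 0.16 over all tested genes. Members were also brighter, with means of 9.31 to 9.42 on wild type arrays, beside 6.73 to 6.76 over all tested genes. Their median SE was 0.091, beside 0.13. The part of brightness in the narrower intervals and smaller SD was not tested.

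The count of 5, with the same genes, held without wild type replicate 1 (background 11.2%) and without knock-in replicate 1 (background 10.6%). It fell when any 1 of the other arrays was left out. It was 3 without knock-in replicate 3 (background 10.2%), which were Arf4, Sec24b and Tmed3, and 0 without knock-in replicates 3 and 4 together (background 10.6%). Leaving out wild type replicate 2 gave 3 (Arf4, Copb1 and Tmed5, background 10.4%), and leaving out knock-in replicate 4 also gave 3 (Arf4, Copb1 and Stx5a, background 11.5%). Leaving out wild type replicate 3 gave 2, as did wild type replicate 4 and, on the other side, knock-in replicate 2 (backgrounds 8.95% to 10.4%). Members whose groups did not overlap numbered 11 without wild type replicate 2 (background 11.1%) and 10 without knock-in replicate 2 (background 9.66%), and 5 to 7 when any 1 of the other arrays was left out (backgrounds 10.6% to 12.1%). With knock-in replicates 3 and 4 both out it was 7, where the background was 21.9%. The lowest adjusted p of a member in any of the 16 alternative fits was 0.146.

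**Figure D2:**
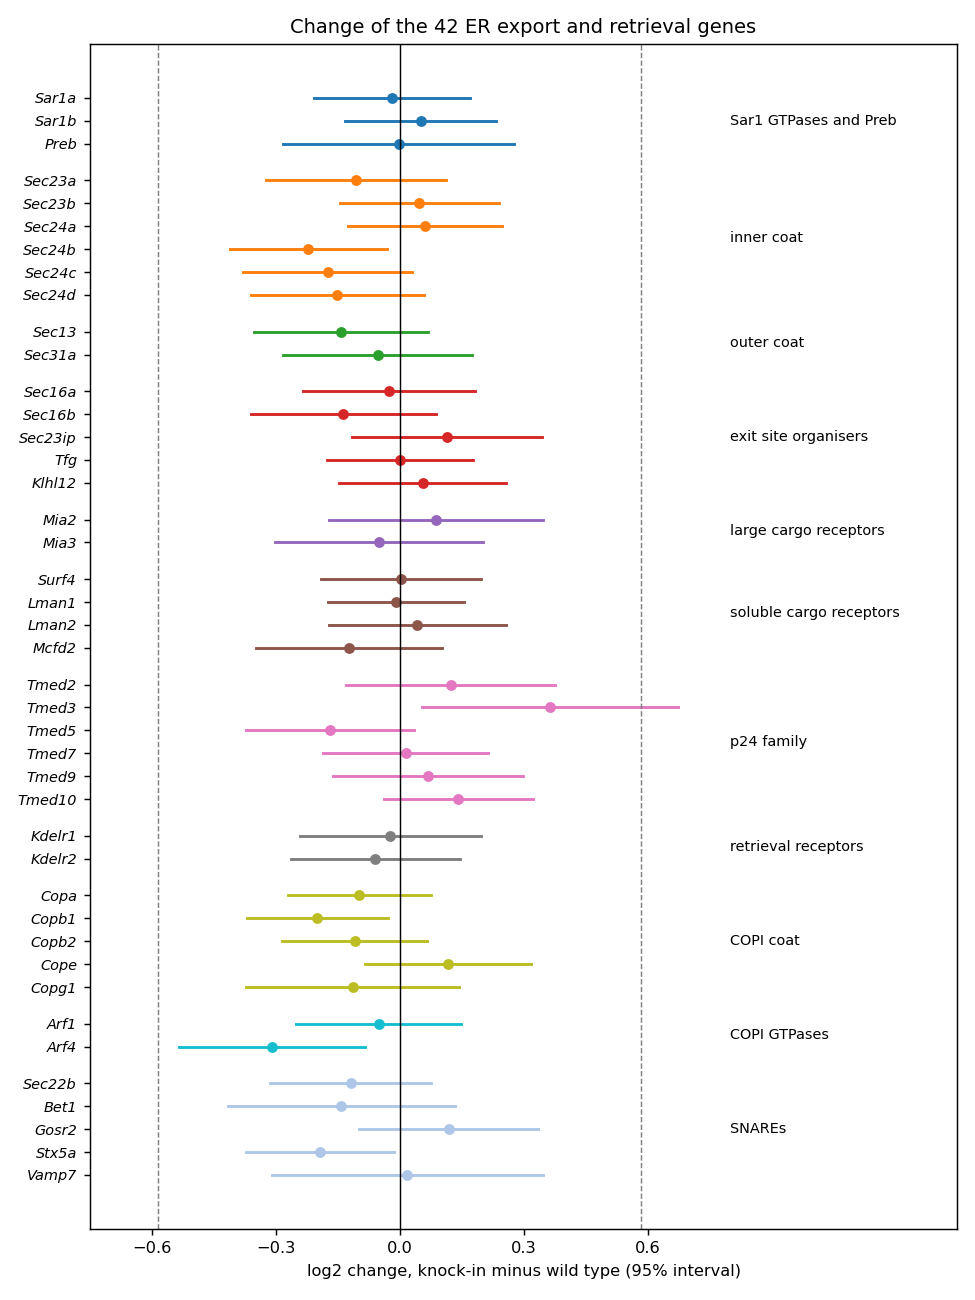
Log2 change of each of the 42 genes, knock-in minus wild type, as the limma estimate (point) with its 95% interval (line), grouped by role; dashed lines mark 1.5-fold. The interval of Tmed3 alone reaches past the dashed lines, to 0.67, and the intervals of Arf4, Copb1, Sec24b, Stx5a and Tmed3 leave out 0.

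The GTPase that starts COPII budding did not differ between genotypes beyond the spread of the arrays. Sar1b, the paralog whose loss blocks chylomicron export in the gut, read 11.81, 11.76, 11.60 and 11.66 in wild type replicates 1 to 4 and 11.76, 11.81, 11.69 and 11.77 in knock-in replicates 1 to 4 (log2 expression). The groups overlapped, with means of 11.71 ± 0.09 and 11.76 ± 0.05 (SD, n = 4 each). The change was 0.05 (95% interval -0.13 to 0.23, limma adjusted p = 0.872), and 0.07 without knock-in replicate 3. Sar1a, its close paralog, had a change of -0.02 (interval -0.21 to 0.17), and Preb, the exchange factor that loads Sar1 with GTP at the ER, had -0.0023 (interval -0.28 to 0.28). Preb varied most of the 3 in wild type livers, from 8.23 in replicate 2 to 8.72 in replicate 3, beside a knock-in span of 8.44 to 8.59.

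In the inner coat, the paralogs of Sec24, which bind sorting signals on cargo, differed in sign. Sec24b read 8.35, 8.48, 8.49 and 8.51 in wild type and 8.35, 8.18, 8.28 and 8.14 in knock-in livers. Knock-in replicate 1 reached the level of wild type replicate 1, so the groups overlapped. The change was -0.22 (SE 0.08, limma unadjusted p = 0.0280, adjusted p = 0.363), and -0.23 (unadjusted p = 0.0425) without knock-in replicate 3. Sec24c and Sec24d, which share a cargo-binding class, had changes of -0.17 (SE 0.09) and -0.15 (SE 0.09), and Sec24a had 0.06 (SE 0.08). Their adjusted p-values were 0.515 to 0.846. Sec23a and Sec23b, the paired GTPase activators of Sar1, had changes of -0.11 (SE 0.10) and 0.05 (SE 0.09). Of the 6 inner coat genes, 1 (16.7%, background 11.3%) had an unadjusted p under 0.05.

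The outer coat and the organisers of ER exit sites gave 0 of 7 genes at an unadjusted p under 0.05. The background was 11.3%, and 7 genes are too few to differ from it by this count. Sec13 and Sec31a, which form the outer cage, had changes of -0.14 (SE 0.09) and -0.05 (SE 0.10). Without knock-in replicates 3 and 4 these changes were -0.05 and -0.04. Sec16a and Sec16b, the scaffolds on which coats assemble, had -0.02 (SE 0.09) and -0.14 (SE 0.10). Tfg, which gathers vesicles at the exit site, had 0.00089 (SE 0.08) and -0.0060 after a further quantile normalization. Sec23ip, a phospholipase-like partner of Sec23, had 0.12 (SE 0.10). In Sec23ip the wild type arrays lay apart in pairs, with replicates 1 and 2 at 7.98 and 7.99 and replicates 3 and 4 at 8.33 and 8.25, while knock-in arrays ran 8.22 to 8.30. Klhl12, the ubiquitin ligase adaptor that enlarges COPII carriers for procollagen, had 0.06 (SE 0.09).

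The receptors known for bulky or lipoprotein cargo had changes near 0. Surf4, the receptor that speeds the exit of apolipoprotein B particles, read 9.65, 9.42, 9.68 and 9.64 in wild type and 9.59, 9.63, 9.54 and 9.63 in knock-in livers. The 4 knock-in values lay inside the wild type range, which was widened by wild type replicate 2. The change of Surf4 was 0.0036 (95% interval -0.19 to 0.20, limma adjusted p = 0.993), with a sign that turned to -0.014 after a further quantile normalization and to -0.0095 with array weights. Mia2 (cTAGE5) read 10.96, 11.11, 10.67 and 10.90 in wild type and 10.98, 10.97, 11.17 and 10.86 in knock-in livers. The highest Mia2 value was that of knock-in replicate 3 and the lowest that of wild type replicate 3. The change of Mia2 was 0.09 (interval -0.17 to 0.35, limma adjusted p = 0.837), and 0.03 without knock-in replicate 3. Mia3 (TANGO1), which holds the exit site open around large cargo, read 9.65, 9.83, 9.66 and 9.998 in wild type and 9.65, 9.59, 9.87 and 9.81 in knock-in livers. Each Mia3 group had low and high arrays, and the change was -0.05 (interval -0.30 to 0.20, limma adjusted p = 0.916), or -0.10 without knock-in replicate 3 and -0.16 without knock-in replicates 3 and 4.

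The lectin receptors for soluble glycoproteins did not differ detectably either. Lman1 (ERGIC-53), which carries coagulation factors V and VIII, had the same mean and SD in both genotypes, 11.09 ± 0.04 (log2, SD, n = 4 each), with a change of -0.0080 (interval -0.17 to 0.16), or 0.026 without knock-in replicates 3 and 4. Its partner Mcfd2 had a change of -0.12 (interval -0.35 to 0.10), with wild type replicate 4 the highest at 8.52 and knock-in replicate 3 the lowest at 8.03. Lman2 (VIP36) had 0.04 (interval -0.17 to 0.26).

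**Figure D3:**
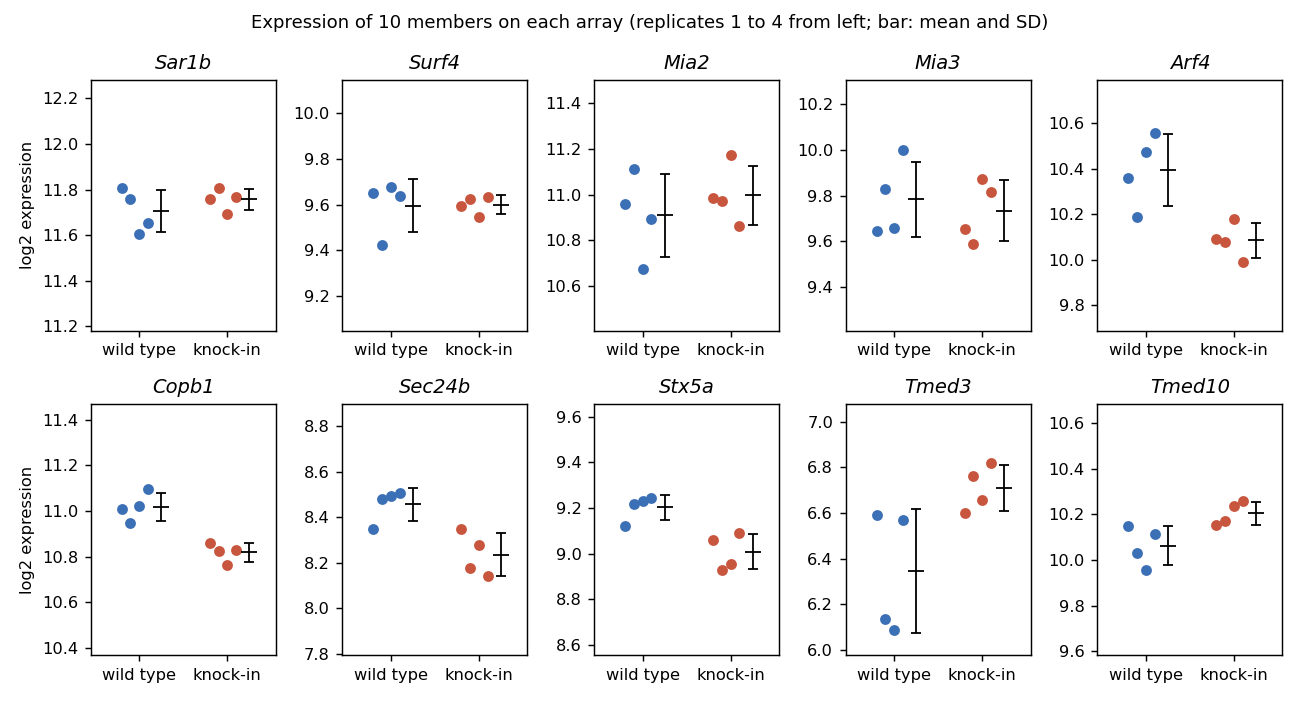
Log2 expression of 10 transport genes on each array, replicates 1 to 4 from left to right in each group, with the group mean and SD as a bar; each panel spans the same height of 1.1 log2 units. Arf4, Copb1 and Stx5a are lower and Tmed3 and Tmed10 higher on each knock-in array than on any wild type array, while Sar1b, Surf4, Mia2, Mia3 and Sec24b overlap.

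The p24 proteins, transmembrane adaptors that sort anchored cargo and cycle with both coats, held both members whose knock-in values all lay above the wild type ones. Tmed3 (probe set 17529634) read 6.59, 6.14, 6.09 and 6.57 in wild type and 6.60, 6.76, 6.66 and 6.82 in knock-in livers. The wild type arrays lay in pairs, and replicates 1 and 4 came close to the lowest knock-in array. The change of Tmed3 was 0.36 (SE 0.14, limma unadjusted p = 0.0260, adjusted p = 0.358), and 0.38 (unadjusted p = 0.0407) without knock-in replicate 3. Tmed10 read 10.15, 10.03, 9.96 and 10.11 in wild type and 10.15, 10.17, 10.24 and 10.26 in knock-in livers. The lowest knock-in value of Tmed10 lay just above the highest wild type one, and its change was 0.14 (SE 0.08, limma unadjusted p = 0.109, adjusted p = 0.544). Tmed2, Tmed7 and Tmed9 had changes of 0.12, 0.01 and 0.07, and Tmed5 had -0.17. Other probe sets of the same genes did not always share the sign. A dimmer probe set of Tmed2, above the dim limit on all 8 arrays, gave -0.27, and one of Tmed10, also above it on all 8, gave 0.34. Taking the mean of a gene's probe sets turned the sign for Tmed2 to -0.075 and for Tmed9 to -0.10.

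For retrieval to the ER, the KDEL receptors Kdelr1 and Kdelr2, which return soluble ER residents, had changes of -0.02 (SE 0.10) and -0.06 (SE 0.09). Among coatomer subunits of COPI, Copb1 (probe set 17495271) read 11.01, 10.95, 11.02 and 11.10 in wild type and 10.86, 10.83, 10.76 and 10.83 in knock-in livers. All 4 knock-in values lay below the wild type ones. The change of Copb1 was -0.20 (SE 0.08, limma unadjusted p = 0.0266, adjusted p = 0.359), and -0.18 (unadjusted p = 0.0697) without knock-in replicate 3, its lowest array. Copa, Copb2 and Copg1 had changes of -0.10, -0.11 and -0.11, and Cope had 0.12, with adjusted p-values of 0.647 to 0.765. Of the 5 COPI subunits, 1 (20%, background 11.3%) had an unadjusted p under 0.05.

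Arf GTPases recruit COPI to membranes, and Arf4 (probe set 17297913) had the lowest p of the 42. It read 10.36, 10.19, 10.47 and 10.56 in wild type and 10.09, 10.08, 10.18 and 9.99 in knock-in livers. The groups did not overlap, although wild type replicate 2 and knock-in replicate 3 lay next to each other. The change of Arf4 was -0.31 (SE 0.10, 95% interval -0.53 to -0.08, limma unadjusted p = 0.0128, adjusted p = 0.305). It was -0.34 (unadjusted p = 0.0159) without knock-in replicate 3 and -0.31 (unadjusted p = 0.0527) without knock-in replicates 3 and 4. The mean of both Arf4 probe sets, of which the dimmer lay below the dim limit on all 8 arrays, gave -0.06 (unadjusted p = 0.52). Arf1, the other Arf of the list, had -0.05 (SE 0.09).

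Of the SNARE proteins that fuse these vesicles with the Golgi or ER, Stx5a, the Golgi syntaxin, read 9.12, 9.22, 9.23 and 9.24 in wild type and 9.06, 8.93, 8.96 and 9.09 in knock-in livers. Knock-in values of Stx5a were all lower, with wild type replicate 1 and knock-in replicate 4 closest. Its change was -0.19 (SE 0.08, limma unadjusted p = 0.0372, adjusted p = 0.389), and -0.18 (unadjusted p = 0.0886) without knock-in replicate 3. Its partners Sec22b, Bet1 and Gosr2 had changes of -0.12, -0.14 and 0.12. Vamp7, a SNARE found in intestinal carriers of large lipoproteins, had 0.02 (interval -0.31 to 0.35) and -0.13 without knock-in replicates 3 and 4. Its wild type arrays spanned 8.80 to 9.38, and its knock-in arrays 9.01 to 9.36.

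**Figure D4:**
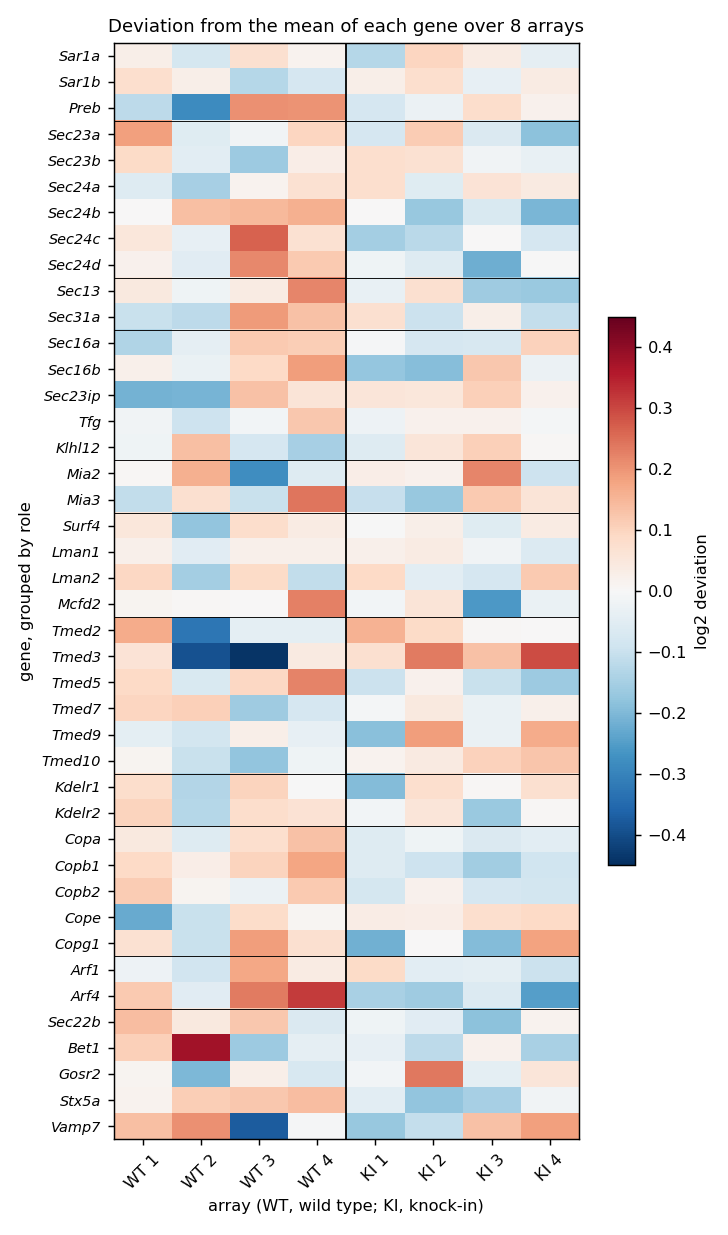
Deviation of each of the 42 genes from its own mean over 8 arrays (log2, colour scale from -0.45 to 0.45), with genes as rows grouped by role and arrays as columns. Wild type replicate 4 is the highest array in 12 genes and wild type replicate 3 in 10, while wild type replicates 2 and 3 and knock-in replicate 4 are each the lowest in 8.

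In the mean of the members, wild type arrays differed from each other more than the groups did, and knock-in arrays about as much. Averaged over the 42 genes, deviations ran from -0.048 to 0.064 over wild type arrays, and the knock-in arrays gave -0.033 to -0.0012, so the knock-in range lay inside the wild type range. The SD was larger in wild type than in knock-in livers in 30 of 42 genes, beside 53.5% of all tested genes. Wild type replicate 2 was low in Surf4, Preb, Kdelr2 and Tmed2 and high in Bet1 at 9.11, and wild type replicate 3 was low in Mia2 and Vamp7.

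Other genes of the pathway were read for comparison, from a list of 62 further coat, tether, Rab and SNARE genes of which 57 were tested. By limma, 0 of 57 passed over all genes (lowest adjusted p = 0.232), and 4 higher and 1 lower had an unadjusted p under 0.05. These 5 make 8.77% of the list, below the background of 11.3%. Sec31b, a paralog of the outer coat protein Sec31a, read 5.44, 4.93, 5.29 and 5.10 in wild type and 5.78, 5.47, 5.71 and 5.68 in knock-in livers. All 4 knock-in values of Sec31b were higher, with a change of 0.47 (SE 0.13, limma unadjusted p = 0.00501), and 0.45 (unadjusted p = 0.0144) without knock-in replicate 3. Arf5 and Sec22c had changes of 0.25 (SE 0.10) and 0.36 (SE 0.15). Pdcd6, the calcium sensor that works with Klhl12, had 0.18 (SE 0.08), and Bcap29, an ER export chaperone of membrane proteins, had -0.25 (SE 0.10). Without knock-in replicate 3 the unadjusted p was 0.0374 for Arf5, 0.101 for Sec22c (change 0.29), 0.0602 for Pdcd6 and 0.0627 for Bcap29. The median over the 57 genes was 0.0083.

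The cargo and its loading factors gave no call either. Of 13 listed genes 12 were tested, 0 passed over all genes by limma, and 2 (16.7%, background 11.3%) had an unadjusted p under 0.05, both lower. Apob, the protein of VLDL, had a change of -0.0037 (SE 0.07), which turned to 0.010 after a further quantile normalization. Its mean of 13.2 in both groups lies close to the table's maximum of 13.7. Mttp, which lipidates it, had -0.15 (SE 0.09), or -0.14 without knock-in replicate 3 and -0.06 without knock-in replicates 3 and 4. Tm6sf2 itself had -0.06 (interval -0.42 to 0.29), or -0.14 without knock-in replicate 3 and -0.24 without knock-in replicates 3 and 4. Its level does not check the genotype labels, because the variant is a coding change. The 2 with an unadjusted p under 0.05 were Serpina1a, a member of a family of near-identical copies, at -0.35 (SE 0.13), and F8, coagulation factor VIII and a cargo of Lman1 and Mcfd2, at -0.26 (SE 0.10). Serpina1c, a copy of Serpina1a, was at 0.0011 (SE 0.08), and F5, coagulation factor V and a cargo of the same receptor, at -0.03 (SE 0.08). Bulk liver does not tell which cell type a transcript came from, so the change of F8 is not placed in hepatocytes.

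Among 16 sensors and targets of ER stress, 14 were lower by sign, beside 6572 of all 13449 tested genes, with a median change of -0.083. By limma, 0 passed over all genes, and 2 had an unadjusted p under 0.05, both lower. The 2 make 12.5% of the list, near the background of 11.3%. The groups did not overlap in 3 genes, or 18.8% (background 7.16%), with 1 higher and 2 lower. Hspa5 (BiP), the main ER chaperone, read 9.67, 9.57, 9.52 and 9.63 in wild type and 9.44, 9.17, 9.32 and 9.52 in knock-in livers, without overlap. Wild type replicate 3 at 9.524 lay only just above knock-in replicate 4 at 9.520. The change of Hspa5 was -0.23 (SE 0.10, limma unadjusted p = 0.0380, adjusted p = 0.393), and -0.22 (unadjusted p = 0.0822) without knock-in replicate 3. Creb3, an ER-tethered transcription factor known to control Arf4, read 8.98, 9.01, 8.87 and 8.86 in wild type and 8.75, 8.71, 8.70 and 8.68 in knock-in livers, also without overlap. The change of Creb3 was -0.22 (SE 0.08, limma unadjusted p = 0.0192, adjusted p = 0.335). Xbp1, the transcription factor that drives secretory capacity, had -0.04 (SE 0.09). The remaining gene of this list without overlap, the stress sensor Atf6, was higher by sign (0.085, SE 0.07, limma adjusted p = 0.727). The change farthest from 0 in the list was also positive, in Herpud1, a part of ER-associated degradation (0.38, SE 0.18, limma unadjusted p = 0.0691). Atf6 and Herpud1 were named after their values were seen.

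The promoters were then read for what the genes share beyond their role. RefSeq promoter windows of 300 bases (GRCm38.p6, from 250 bases before the start to 50 after) were given for 37 of the 42 genes. ACGTG, the core to which XBP1, ATF6 and the CREB3 family bind, was searched on both strands, where it also reads CACGT. It lay in at least 1 window of 26 of the 37 genes, or 70.3%, beside 28.1% of 10546 tested genes with a window and 21.8% of all 27025 genes. The longer element of the unfolded protein response (UPR), TGACGTGG or TGACGTGA, which contains the core, was searched after the core had been counted. It lay in 7 of the 37, or 18.9%, beside 1.8% of tested genes. The cAMP response element TGACGTCA lay in 3, or 8.11%, beside 3.31% of tested genes. The full ER stress element (ERSE), searched on both strands as its consensus, lay in 0 of the 37 and in 0.171% of tested genes. The windows of these 37 genes had a median of 24 CpG and those of tested genes 21, and the part of base composition in these shares was not tested. A match is a run of letters and not a shown binding site. The letters do not tell which factor, of the named ones or others, would bind there.

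The 7 genes with the longer element are shown because the ratio of its share among the members to that among tested genes was the highest of the motifs searched. Each sequence is 5′ to 3′ along the strand that reads the element, which is in capitals, with up to 10 bases on each side. Stx5a holds it at both places shown, each after the start. Hspa5, the classical UPR target, is added for comparison of the letters only. Whether Hspa5 responds through this element was not tested. In GRCm38.p6 the stretches lie at chr7:114254691-114254718 (plus strand) for Copb1, chr19:8741423-8741450 (minus strand) and chr19:8741453-8741473 (plus strand) for Stx5a, and chr3:123267460-123267487 (plus strand) for Sec24d. Those of Copb2 and Sec16b lie at chr9:98563714-98563741 (minus strand) and chr1:157506742-157506769 (plus strand). Those of Sec23a, Arf1 and Hspa5 lie at chr12:59011994-59012021 (minus strand), chr11:59228229-59228256 (minus strand) and chr2:34771923-34771950 (plus strand).
Copb1: agtccttggcTGACGTGGaagggggcgg
Stx5a, first copy: cctaactcggTGACGTGGctgctgcgcc
Stx5a, second copy: tacgtctaggTGACGTGGcgg
Sec24d: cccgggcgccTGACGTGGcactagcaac
Copb2: gccaacccacTGACGTGGaacttccggg
Sec16b: tctgtgtggcTGACGTGGcacggcagtt
Sec23a: tcctccccttTGACGTGGcagaggcggc
Arf1: cggcaggcgcTGACGTGGctgccgtcag
Hspa5: ggcgtagcaaTGACGTGAgttgcggagg
The element of each of the 7 genes reads TGACGTGG, and that of Hspa5 reads TGACGTGA. In the knock-in these 7 genes had changes of -0.20 (Copb1), -0.19 (Stx5a), -0.15 (Sec24d), -0.11 (Copb2), -0.14 (Sec16b), -0.11 (Sec23a) and -0.05 (Arf1). All 7 were negative by sign, with a median of -0.14, and 2 of them (Copb1 and Stx5a) had an unadjusted p under 0.05 by limma. Of the 30 members with a window but without the element, 16 were negative. Their median was -0.01, and 10% had an unadjusted p under 0.05. Over all tested genes with the element, 98 of 190 were negative, the median was -0.0029, and 11.6% had an unadjusted p under 0.05. Since the element was chosen after values had been seen, no test is given.

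For the 3 members with the lowest p, the whole window is shown with the core in capitals on whichever strand it lies. Arf4 is at chr14:26637884-26638183 on the plus strand and holds 2 cores, both reading CACGT on the strand of the gene. Tmed3 is at chr9:89704994-89705293 on the minus strand, and Copb1 is at chr7:114254631-114254930 on the minus strand. Tmed3 also holds 2 cores, 1 on each strand, and Copb1 holds 1, inside the longer element.
Arf4: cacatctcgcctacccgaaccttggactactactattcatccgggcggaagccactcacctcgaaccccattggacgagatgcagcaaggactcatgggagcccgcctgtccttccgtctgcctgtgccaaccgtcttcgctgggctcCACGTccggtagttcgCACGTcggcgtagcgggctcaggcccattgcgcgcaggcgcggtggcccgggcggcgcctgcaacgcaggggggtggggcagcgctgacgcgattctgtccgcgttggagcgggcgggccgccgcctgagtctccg
Tmed3: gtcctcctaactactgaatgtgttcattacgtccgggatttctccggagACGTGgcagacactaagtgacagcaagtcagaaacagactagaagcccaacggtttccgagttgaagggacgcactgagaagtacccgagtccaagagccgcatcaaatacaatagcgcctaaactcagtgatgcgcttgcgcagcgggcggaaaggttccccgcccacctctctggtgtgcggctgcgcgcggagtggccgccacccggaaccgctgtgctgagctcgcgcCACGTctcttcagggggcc
Copb1: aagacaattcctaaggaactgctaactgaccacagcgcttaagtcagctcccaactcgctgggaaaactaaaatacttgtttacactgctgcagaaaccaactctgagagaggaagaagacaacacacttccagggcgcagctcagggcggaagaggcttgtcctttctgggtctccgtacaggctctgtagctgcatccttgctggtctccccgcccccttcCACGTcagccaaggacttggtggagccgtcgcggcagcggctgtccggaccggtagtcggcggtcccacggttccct
Arf4 and Copb1, with lower values in the knock-in, and Tmed3, with higher ones, all hold the core. Among the members, the 26 genes with the core had a median change of -0.05 and the 11 without it had -0.0023. Over tested genes the median was 0.0055 for the 2967 with the core and 0.0028 for the 7579 without it.

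**Figure D5:**
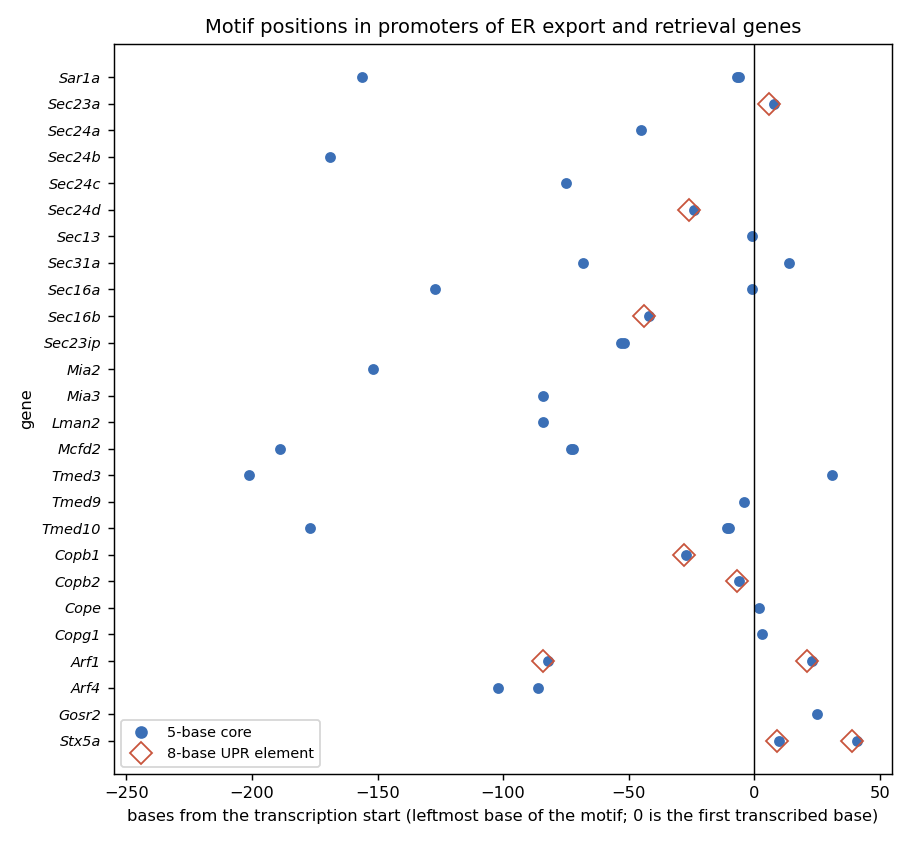
Position of the 5-base core (filled circle) and the 8-base UPR element (open diamond) in the promoter windows of the 26 genes that hold the core, in bases from the first transcribed base at 0 (x axis), with 1 gene per line. Where a gene has more than 1 annotated start, the matches of each of its windows are drawn.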

How the data were processed

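Expression in 8 mouse liver samples was measured on Affymetrix whole-transcript arrays from 400 ng of total RNA, per the labels' protocols. What the authors deposited is 1 table of expression on the log2 scale, made with RMA, and they tested with limma, per the submitters' processing notes, which name no versions. The annotation's genome build is not given in the sources used here. This method brings the arrays to 1 distribution, so it would remove a shift shared by most genes, and it compresses changes of dim and very bright probe sets. Arrays have no read depth.

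Of 41345 probe sets, 23521 carry 1 gene symbol, checked through Entrez identifiers against RefSeq GRCm38.p6 (23328 matched, 193 kept the symbol of the platform annotation). Each gene was read from its brightest probe set on average. Testing needed 4 or more of the 8 arrays above the dim limit, which left 13449 of 22180 genes. The genotypes were compared with limma's lmFit and eBayes (version 3.58.1, R 4.3.3). The model held genotype only, and tests were two-sided, with Benjamini-Hochberg over all tested genes and a threshold of 0.05. The procedure was tested on simulated data with independent errors per gene and no effect shared by an array. Changes planted there were larger than that of any member, so smaller changes and acinar transcripts on 1 array were not covered. A change is the log2 value of knock-in minus that of wild type.

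Per-array values are given for members at an unadjusted p under 0.05 or without overlap and for Sar1b, Surf4, Mia2 and Mia3. From the other lists, genes at an unadjusted p under 0.05 are named, with Apob, Mttp, Tm6sf2 and Xbp1. The members and lists were chosen with earlier results of these data known. Alternatives were other filters, the mean of probe sets, a further quantile normalization, a trended and robust prior, array weights, a replicate block and leaving out each array. Leaving out knock-in replicates 3 and 4 together was added after seeing the data. Protein sequences were not used here.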

Additional observations from a re-analysis of the deposited data

Results flagged for a closer look

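In 7 of 110 groups of 4 arrays, over the members and the named genes of the other lists, 1 array lay far from the other 3. Chance alone gives such a gap in about 1 of 20 groups, or 5.5 of 110. Wild type replicate 2 was the low array in Surf4 (9.42, the others 9.64 to 9.68), Lman1 (11.04, the others at 11.11) and Kdelr2 (10.51, the others 10.70 to 10.73). Wild type replicate 1 was low in Sec24b (8.35, the others 8.48 to 8.51), and wild type replicate 4 was high in Mcfd2 (8.52, the others 8.29 to 8.30). Knock-in replicate 2 was high in Copb2 (10.62, the others at 10.52) and low in Bcap29 (8.32, the others 8.39 to 8.40). Knock-in replicate 3, the array with acinar transcripts, was in none of these 7.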

How the results depend on the processing

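With 4 arrays a group and a median SE of 0.091 on the log2 scale for the members, small changes cannot be told from 0. In all 16 alternatives 0 of 42 members passed the adjusted threshold by limma, the median change of the members stayed negative (-0.051 to -0.0027), and 28 members kept their sign. The causes of the differences below were not tested. Genes past the adjusted threshold numbered 9, and 2 with no filter, 23 with a stricter filter, 24 with the mean of probe sets, 73 with a trended and robust prior, 25 with array weights and 1 to 12 when 1 array was left out. Without knock-in replicates 3 and 4 there was 1. Members whose groups do not overlap numbered 3 with the mean of probe sets (7.1% of all tested genes) and 5 to 11 when 1 array was left out (9.66% to 12.1%). Members at an unadjusted p under 0.05 numbered 0 to 1 higher and 1 to 4 lower when 1 array was left out (8.95% to 11.5% of all tested genes in either direction), and 0 higher and 0 lower without knock-in replicates 3 and 4 (10.6%). Of the other pathway genes, 1 to 4 were higher and 0 to 2 lower when 1 array was left out. The lower count was 2 after a further quantile normalization, 2 with array weights, 3 with the trended prior and 0 without knock-in replicates 3 and 4.

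Arrays of the same number did not pair (correlations of deviations -0.105 to 0.101, with 1 of 4 above 0.1; 1 wild type array correlated best with its own number). With the replicate block there were 2 genes past the adjusted threshold, 1 member higher (Tmed3) and 1 lower (Arf4) at an unadjusted p under 0.05 (9.78% of all tested genes in either direction), and 2 other pathway genes higher and 0 lower.

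Signs turned for Tmed2 (-0.075) and Tmed9 (-0.10) with the mean of probe sets. They turned for Tfg (-0.0060), Surf4 (-0.014) and Apob (0.010) after a further quantile normalization, and for Tfg (-0.013) and Surf4 (-0.0095) with array weights. Without knock-in replicates 3 and 4 they turned for Tfg (-0.0029), Lman1 (0.026) and Vamp7 (-0.13). When 1 array was left out the sign depended on the array for Sar1a (-0.053 to 0.022), Sec16a (-0.075 to 0.0097), Sec31a (-0.10 to 0.0019), Preb (-0.098 to 0.066), Tfg (-0.030 to 0.041), Mia3 (-0.097 to 0.022), Surf4 (-0.055 to 0.031), Lman1 (-0.027 to 0.011), Lman2 (-0.00021 to 0.081), Tmed7 (-0.036 to 0.053), Kdelr1 (-0.070 to 0.039), Vamp7 (-0.10 to 0.091), Apob (-0.020 to 0.0061) and Tm6sf2 (-0.16 to 0.064).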
